A study of Rattus norvegicus with 12 samples.

Results

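Hematoma from a 1.5 mm femoral defect was compared with pieces of intact femur by RNA sequencing. The 6 libraries compared were those titled as delayed healing (3 libraries, called delayed here) and as preOP (3 libraries), out of 12 in the series. Every library came from male rats labelled SAS Fischer, weighing 200 to 225 g. The delayed libraries came from hematoma in a 1.5 mm defect, described in the labels as a model of delayed healing. The preOP libraries came from healthy bone taken out at surgery when a 5.0 mm defect was made, so they are not the femurs that later carried the 1.5 mm defect. The other 6 libraries, 3 from 0.5 mm defects (normal healing) and 3 from 5.0 mm defects (nonunion), entered the fit that estimates the spread, and the delayed hematoma was compared with each of these groups at the end. The labels give neither the time between surgery and hematoma collection nor whether the 3 libraries of a group came from separate animals, so p-values measure the spread between these samples, which may be technical. The comparison asks which transcripts set the content of this defect apart from intact femur. It does not show by itself which differences are particular to delayed healing.

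A fracture hematoma is the clot that fills a bone defect. Inflammatory cells enter it, macrophages clear dead cells and red cells, fibroblasts lay down a provisional matrix, and vessels and bone-forming cells grow in later. A piece of long bone, in contrast, carries its marrow, where red cells, granulocytes, platelets and B lymphocytes are formed, alongside osteoblasts and matrix-embedded osteocytes. In these bulk libraries fewer cells of a type and less RNA per cell cannot be told apart.

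Totals ranged from 16808993 to 22283313 estimated reads over the 6 libraries, and 12057 to 12450 genes per library had at least 10 reads. The preOP libraries carried 15.7% to 24.0% of their reads on globin genes, against 2.96%, 0.28% and 0.475% in delayed 1, 2 and 3. Library delayed 2 stood apart from the other delayed libraries: 10.6% of its reads fell on 26 genes of mature skeletal muscle, against 0.0325% in delayed 1 and 0.195% in delayed 3, and 0.918% to 1.97% in preOP. Delayed 1 carried the most globin of the 3 hematomas. Outside the compared libraries, nonunion 2, which entered the estimate of the spread, had 72.2% of its reads on ribosomal RNA. Counts that changed by over 1.5 times without delayed 2 are given beside the result. On the first principal component of log expression over all 12 libraries, which held 42.7% of the variance, the preOP libraries lay at 127 to 129 and the delayed libraries at -57.0 to -10.1.

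Of 12846 genes tested, 3622 were called, which is 28.2% of those tested, at a Benjamini-Hochberg adjusted p below 0.05 in edgeR's quasi-likelihood test. In the delayed hematoma 1615 genes (12.6%) were higher and 2007 (15.6%) were lower than in preOP, where a log2 difference of 1 is a 2-fold difference. The higher count fell to 972 without preOP 3, and the lower count was 1112 without delayed 3 and 1193, 1108 and 1330 without preOP 1, 2 and 3. On counts simulated for this comparison with 200 of 12846 genes changed, the fit recovered 71.2% of 8-fold, 38.8% of 4-fold and 4.48% of 2-fold differences. That is a far smaller share of changed genes than the 28.2% called in the data, so these rates may not hold for the data. Among the calls, 1399 of the higher genes and 1732 of the lower genes differed at least 2-fold. The median log2 difference was 1.77 over the genes called higher, -1.96 over those called lower and -0.03 over all genes tested. The 3 delayed libraries lay above the 3 preOP libraries without overlap for 21.9% of the genes tested and below them for 30.1%. Higher genes made up 44.6% of the calls. That share was 55.6% after globin genes were left out before scaling and 55.7% after ribosomal RNA was left out. These fits moved the median log2 difference of all genes up by 0.177 and 0.178. The share also rose in fits that kept those genes, to 54.1% without the normal group and 54.6% with only the 6 compared libraries. It was 38.6% in limma-voom, 42.1% with the replicate block and 42.2% without preOP 3. It was 42.7% with a minimum fold of 2, 44.3% without the filter on low counts and 44.6% with effective lengths as offsets. In every other alternative fit it was 50.3% to 55.7%, so the excess of lower calls depended on the fit.

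**Figure D1:**
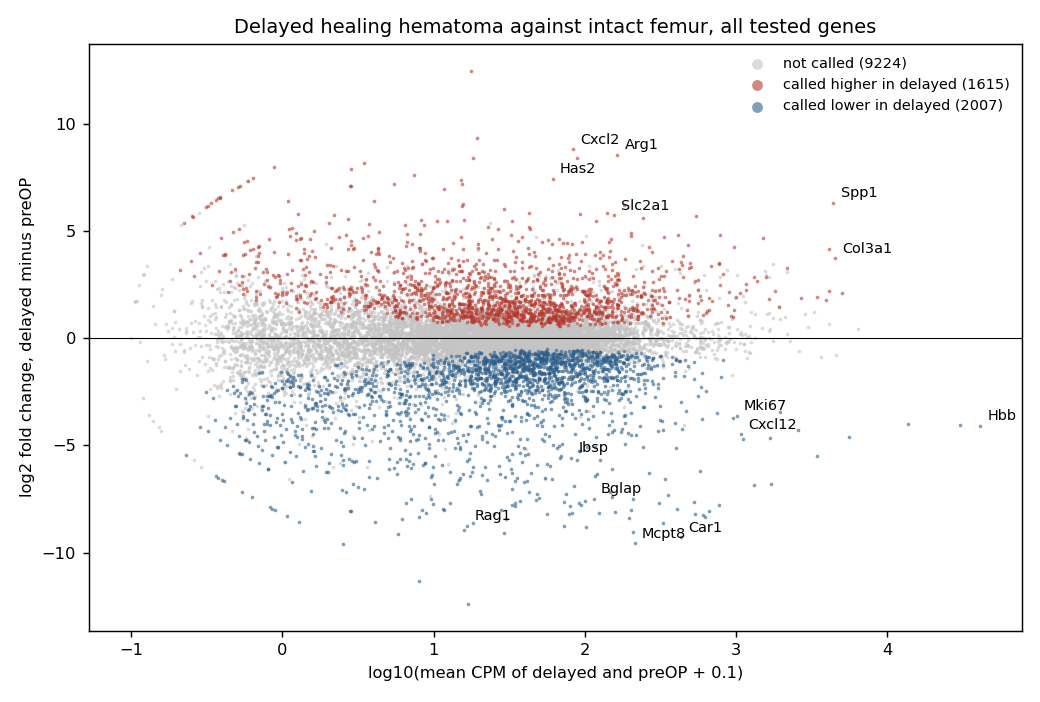
Log2 fold change of delayed over preOP (vertical axis) against the mean level of the 6 libraries, as log10 of CPM (reads scaled to the library total, with TMM) plus 0.1, for the 12846 tested genes. The 1615 genes called higher and the 2007 called lower spread over all levels of expression, and Hbb lies farthest to the right among the lower genes.

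Levels below are CPM after TMM scaling, given for libraries 1, 2 and 3 of a group in that order. They compare a gene between libraries, not genes with each other. Differences are on the log2 scale with their standard error (SE). The 48 gene lists used hold 925 symbols, of which 846 were in the files and 816 were tested, with 200 called higher and 181 called lower. Shares of called members are to be read against the 12.6% and 15.6% over all genes tested.

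**Figure D2:**
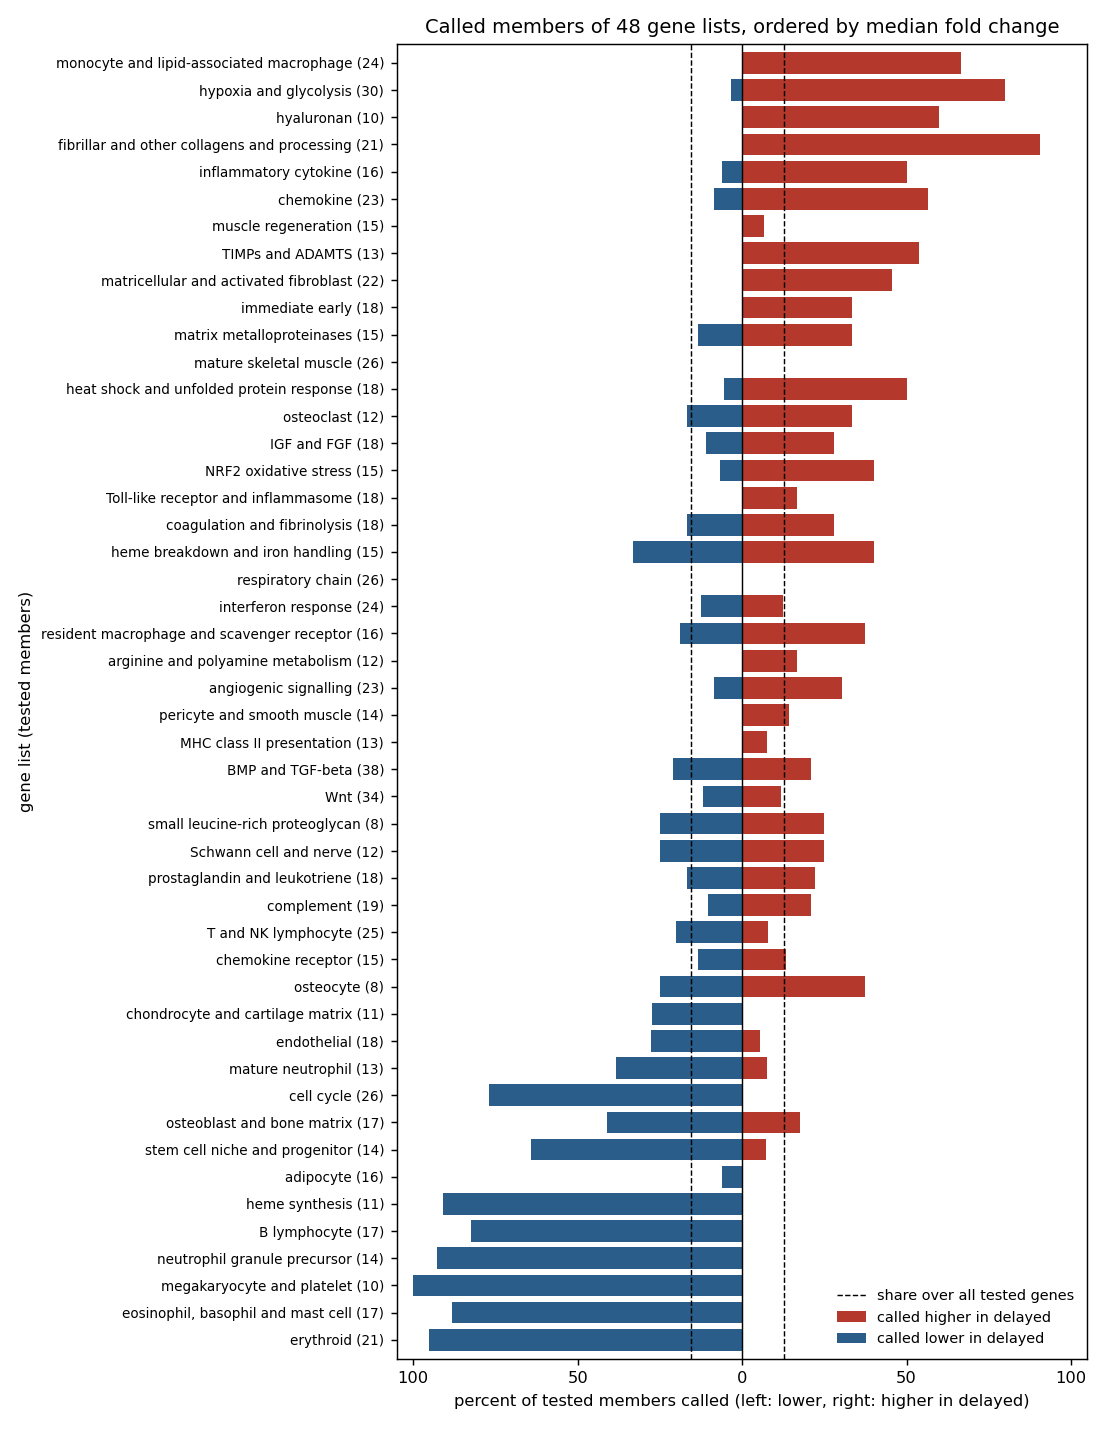
Percent of tested members called higher (right) or lower (left) in delayed for 48 gene lists, ordered by the median log2 fold change of their members, with the number tested in brackets. Dashed lines mark the share over all tested genes, 12.6% higher and 15.6% lower. Blood-forming lists fill the lower end, while macrophage, hypoxia, hyaluronan and collagen lists fill the upper end.

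Genes of mineralising bone were lower in the delayed hematoma, while the type I collagen genes were higher. Of 17 tested genes on the osteoblast and bone matrix list, 7 were called lower and 3 higher, with a median log2 difference of -2.43. Bglap encodes osteocalcin, a protein of mature osteoblasts that binds bone mineral. It stood at 1.15, 1.75 and 0.887 CPM in delayed and 232, 259 and 190.0 CPM in preOP, and no delayed library came near a preOP library (log2 difference -7.49 ± 0.38 SE, adjusted p = 5.86e-06). Ibsp, which encodes bone sialoprotein, a mineral-binding matrix protein, stood at 2.61, 4.02 and 3.35 CPM in delayed and 213, 149.8 and 113 CPM in preOP (log2 difference -5.57 ± 0.39 SE, adjusted p = 3.12e-05). Alpl encodes the alkaline phosphatase needed for mineral growth. Its levels were 3.38, 4.64 and 1.41 CPM against 28.2, 35.2 and 61.8 CPM (log2 difference -3.73 ± 0.49 SE, adjusted p = 0.00048). Slc13a5, a citrate transporter, fell from 14.9, 8.92 and 2.77 CPM in preOP to 0.269, 0.258 and 0.686 CPM in delayed (log2 difference -4.42 ± 0.74 SE, adjusted p = 0.00166), and Omd, a proteoglycan of mineralised tissue, fell by 3.83 on the log2 scale. The groups did not overlap for any of these 5 genes.

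The 3 members of that list called higher were Col1a1, Col1a2 and Sparc, which fibroblasts express as well as osteoblasts. Col1a1 stood at 4782, 4164 and 15480.0 CPM in delayed and 1724, 1918 and 2097 CPM in preOP (log2 difference 2.09 ± 0.54 SE, adjusted p = 0.0151). Delayed 3 was the highest, and without it the log2 difference was 1.36 and the gene was not called. Without any 1 of delayed 3 and the preOP libraries, only 1 of the 3 genes kept a call as higher. Col1a2 rose from 1382, 1432 and 1608 CPM in preOP to 4388, 3849 and 11972 CPM in delayed (log2 difference 2.19 ± 0.49 SE, adjusted p = 0.00734).

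Of the 8 tested osteocyte genes, 2 were called lower and 3 higher (1 higher without preOP 3). Both lower genes encode phosphoproteins of the mineralised matrix around osteocytes. Dmp1 stood at 0.192, 2.58 and 0.161 CPM in delayed and 26.4, 26.6 and 30.2 CPM in preOP, with delayed 2 above the other delayed libraries (log2 difference -4.87 ± 0.97 SE, adjusted p = 0.004). Mepe stood at 0.0384, 0.464 and 0.202 CPM against 11, 16.1 and 7.52 CPM (log2 difference -5.65 ± 0.65 SE, adjusted p = 0.000236). The members called higher were Pdpn, Ackr3 and Cd44, and many cell types besides osteocytes express them. Pdpn, a membrane glycoprotein of early osteocytes, fibroblasts and lymphatic vessels, rose from 4.54, 4.44 and 5.36 CPM to 392, 173 and 265 CPM (log2 difference 5.86 ± 0.52 SE, adjusted p = 8.03e-05). Among 11 tested cartilage genes, 3 were lower, none was higher and the median log2 difference was -1.47. Col11a2, a fibrillar collagen chain of cartilage, was the clearest, at 2.42, 4.64 and 2.14 CPM in delayed and 80.4, 100.5 and 59.3 CPM in preOP (log2 difference -4.71 ± 0.49 SE, adjusted p = 0.000162). Comp and Chad were the other two. Comp lost its call in 15 of 19 alternatives and its delayed and preOP libraries overlapped; Chad lost its call in 10. Without any 1 of delayed 1, delayed 3, preOP 2 and preOP 3, a single cartilage gene was called.

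**Figure D3:**
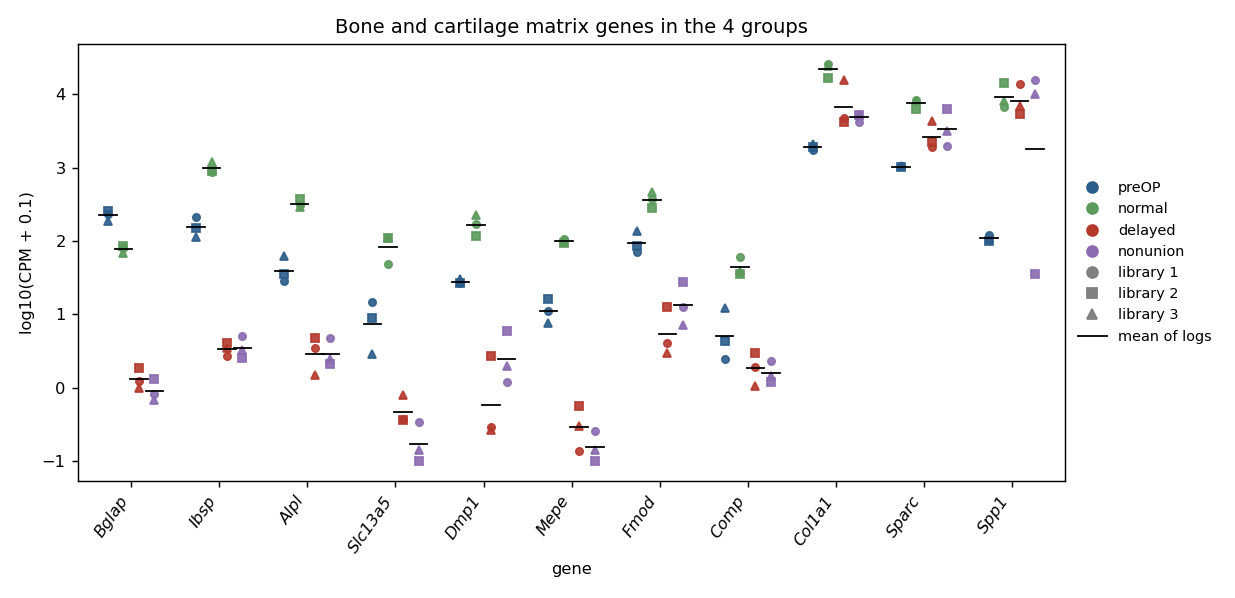
Level of 11 bone and cartilage matrix genes in the 12 libraries, as log10 of CPM plus 0.1, by group (colour) and library number (symbol), with the mean of the logs as a line. Bglap, Ibsp, Alpl, Dmp1, Mepe and Fmod lie lower in the 3 delayed libraries than in the 3 preOP libraries, while Col1a1, Sparc and Spp1 lie higher.

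Osteoclast genes went both ways. Of 12 tested, 4 were called higher and 2 lower, and without delayed 2 these counts were 7 and 3. Tnfrsf11a encodes RANK, the receptor through which osteoclasts form. It rose from 2.02, 1.75 and 2.71 CPM to 28, 12.9 and 16.3 CPM (log2 difference 3.14 ± 0.40 SE, adjusted p = 0.000389). Atp6v0d2, a subunit of the proton pump of osteoclasts and macrophages, stood at 31.2, 15.2 and 14.5 CPM in delayed and 0.592, 0.33 and 0.431 CPM in preOP (log2 difference 5.47 ± 0.89 SE, adjusted p = 0.00143). Ctsk, the collagen-cleaving cathepsin K, was 4.94-fold higher. The 2 lower members, Car2 and Itgb3, are also known from red cell precursors and from platelets. Car2, which encodes carbonic anhydrase 2, fell from 2466, 2242 and 3160.4 CPM to 39.3, 18.9 and 10.8 CPM (log2 difference -6.83 ± 0.80 SE, adjusted p = 0.000268), and Itgb3, the integrin beta 3 chain, fell from 293, 333 and 260.1 CPM to 17.8, 7.89 and 19.4 CPM (log2 difference -4.30 ± 1.03 SE, adjusted p = 0.0104).

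Erythroid genes had the lowest median log2 difference of the 48 lists, -6.80. Of 21 tested, 20 were called lower in delayed. The other, Sptb, the red cell spectrin chain that muscle also expresses, stood at 3.65, 146 and 2.94 CPM in delayed and 599.8, 758 and 1215 CPM in preOP (log2 difference -4.07 ± 1.67 SE, adjusted p = 0.0926), with delayed 2 far above the other delayed libraries. The summed level of the list was 23523, 2902 and 3659 CPM in delayed and 147180.0, 137440.0 and 242310.0 CPM in preOP. For such a summed level, 3 libraries against 3 cannot give a p below 0.10 in a two-sided exact permutation test, and 30 of the 48 lists reached that value. Hbb, a beta globin gene, stood at 10821, 1452 and 1423 CPM in delayed and 78298, 64148 and 90513 CPM in preOP (log2 difference -4.09 ± 0.86 SE, adjusted p = 0.00556). Delayed 1 was higher than delayed 2 and 3, and still below all 3 preOP libraries. Globin genes are near-identical copies, so how their reads were divided among them is uncertain. Car1, Rhag and Kel, chosen for their large differences, had larger fitted folds than Hbb. Tfrc and Sptb, of the same list, had smaller ones, at -3.71 and -4.07 on the log2 scale. These contrasts with Hbb were not tested. Car1, the red cell carbonic anhydrase, stood at 2.46, 0.98 and 0.686 CPM against 912, 784 and 898 CPM (log2 difference -9.28 ± 1.23 SE, adjusted p = 0.000478), which is 623-fold lower. Rhag, a membrane protein of the Rh complex, stood at 1.38, 0.516 and 0.403 CPM against 388, 353 and 511 CPM (log2 difference -9.06 ± 0.94 SE, adjusted p = 0.000149). Kel, which carries the Kell blood group, was 391-fold lower, at 3.49, 1.03 and 0.484 CPM against 480.2, 533 and 965 CPM.

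Heme synthesis genes were lower too. All 11 heme synthesis genes had lower fitted levels in delayed, and 10 were called, with a median log2 difference of -4.05; Alas1, the enzyme that starts the pathway in other tissues, was not called (log2 difference -0.92 ± 0.40 SE, adjusted p = 0.109). Alas2, its red cell counterpart, stood at 196, 24.1 and 20.9 CPM in delayed and 1900.3, 1785 and 2704 CPM in preOP (log2 difference -4.73 ± 1.03 SE, adjusted p = 0.00656). Slc25a37, the mitochondrial iron importer of red cell precursors, stood at 17.3, 7.94 and 16.6 CPM against 346, 407 and 667 CPM (log2 difference -5.08 ± 0.47 SE, adjusted p = 9.5e-05). Cpox, a later enzyme of the pathway, was 20.2-fold lower.

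Heme breakdown and iron handling split. Of 15 tested genes, 6 were higher and 5 lower. Without any 1 preOP library 3 were higher, and without any 1 of delayed 2, delayed 3, preOP 1 and preOP 2, 3 were lower. Hmox1, heme oxygenase 1, which opens the heme ring and frees its iron, rose from 464, 405 and 288 CPM in preOP to 3720.2, 1112 and 3452 CPM in delayed (log2 difference 2.84 ± 0.48 SE, adjusted p = 0.00166). Fth1, the ferritin heavy chain that stores the iron, was 3.42-fold higher, at 8997, 2967 and 6304 CPM against 1865, 1617 and 1867 CPM, and lost its call in 5 of 19 alternatives, leaving out delayed 1 or any 1 preOP library among them. Blvrb, a biliverdin reductase also known from red cells, was lower at 29.2, 32 and 40.6 CPM against 131, 162 and 266 CPM (log2 difference -2.46 ± 0.40 SE, adjusted p = 0.00136). Slc40a1 encodes ferroportin, the iron exporter of macrophages. Its levels were 41.6, 29.5 and 61.2 CPM against 408, 393 and 251 CPM (log2 difference -2.99 ± 0.86 SE, adjusted p = 0.024), and its call was lost in 7 of 19 alternatives, among them without each of delayed 1, 2 and 3. Tfrc, the transferrin receptor that brings iron into dividing precursors, fell by 3.71 on the log2 scale.

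Genes for the granule proteins that neutrophil precursors make in marrow were far lower in the delayed hematoma. Of 14 tested, 13 were called lower (7 without delayed 3), with a median log2 difference of -5.61, and Ltf was not called, at 0.691, 1.03 and 0.363 CPM in delayed and 0.543, 0.708 and 0.616 CPM in preOP. Ngp, the neutrophilic granule protein, stood at 6.75, 3.25 and 1.69 CPM in delayed and 1244, 1296 and 1085 CPM in preOP (log2 difference -8.27 ± 1.29 SE, adjusted p = 0.00115). Defa5 and Np4 encode defensins. Defa5 was 291-fold lower, at 6.75, 2.84 and 1.33 CPM against 1154, 1152 and 880.4 CPM, and Np4 was 269-fold lower. Camp, the cathelicidin, stood at 36.3, 3.35 and 7.02 CPM against 1089, 1103 and 1213 CPM (log2 difference -6.19 ± 1.09 SE, adjusted p = 0.00216). Defensin genes are close copies of one another, so their single values are uncertain.

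Genes of mature neutrophils gave a weaker and mixed picture. Among 13 tested, 5 were called lower and 1 (Ptafr) higher, with a median log2 difference of -1.65. The lower count was 3 without delayed 3, preOP 1 or preOP 2, and the higher count was 2 without delayed 2 and 0 without preOP 3. Retnlg, a resistin-like secreted protein of neutrophils, stood at 8.29, 0.361 and 2.5 CPM against 129, 125 and 102 CPM (log2 difference -4.98 ± 0.98 SE, adjusted p = 0.00375). Fpr1, the receptor for bacterial formyl peptides, was 84.5-fold lower (log2 difference -6.40 ± 1.41 SE, adjusted p = 0.00677). S100a8 and S100a9 encode the 2 chains of calprotectin. S100a8 stood at 282, 17.7 and 81.8 CPM in delayed and 3557, 3339 and 2857 CPM in preOP (log2 difference -4.68 ± 1.29 SE, adjusted p = 0.0198). Its call was lost without delayed 3, preOP 1 or preOP 2. S100a9 stood at 490.5, 34.6 and 221 CPM against 5514, 4960.1 and 4198 CPM, and its call was lost without any 1 of delayed 2, delayed 3 and the 3 preOP libraries. Csf3r, the receptor for the neutrophil growth factor, was not called (log2 difference -0.37 ± 0.86 SE, adjusted p = 0.785).

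Platelet genes were lower as well. All 10 tested megakaryocyte and platelet genes were called lower, with a median log2 difference of -6.47 that was unchanged with Gp1bb at its bound. Ppbp, a platelet chemokine, stood at 2.88, 0.825 and 0.887 CPM in delayed and 434, 439.8 and 339.6 CPM in preOP (log2 difference -8.03 ± 1.05 SE, adjusted p = 0.000457). Gp1bb, a chain of the platelet receptor for von Willebrand factor, had 0 reads in the 3 delayed libraries and 23.9, 24.7 and 52.1 CPM in preOP, at least 258-fold lower against a floor of 3 reads per library, and its call was lost without preOP 3. Pf4, another platelet chemokine, showed the smallest difference of the list (log2 difference -1.63 ± 0.54 SE, adjusted p = 0.0442): 12 of 19 alternatives ended its call, and without delayed 2 its log2 difference was -0.94.

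Of 17 tested eosinophil, basophil and mast cell genes, 15 were called lower, with a median log2 difference of -6.65. Mcpt8, a protease of basophils, stood at 0.998, 0.516 and 0.161 CPM in delayed and 470.4, 469 and 342 CPM in preOP (log2 difference -9.56 ± 0.87 SE, adjusted p = 9.41e-05), which is 753-fold lower. Cma1, the mast cell chymase, stood at 0.345, 0.516 and 0.484 CPM against 258, 226 and 121 CPM (log2 difference -8.80 ± 1.68 SE, adjusted p = 0.00328). Prg2, the major basic protein of eosinophils, was 197-fold lower. The basophil protease Prss34 had 1 read in all 3 delayed libraries, and its ratio from pooled reads was 799-fold lower, with a 95% interval of 143 to 31603 that covers counting error only.

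Of 17 B lymphocyte genes, 14 were called lower (8 without delayed 3, 9 without preOP 1 or preOP 2), with a median log2 difference of -5.04. The steepest were genes of B cell precursors. Rag1, which cuts DNA to assemble antigen receptor genes, stood at 0.0768, 0.0516 and 0.0807 CPM in delayed and 40.5, 45.8 and 13.2 CPM in preOP (log2 difference -8.75 ± 1.09 SE, adjusted p = 0.000376). Igll1, part of the pre-B cell receptor, stood at 0.0768, 0.0516 and 0.0403 CPM against 18.3, 16.3 and 3.88 CPM (log2 difference -7.68 ± 0.90 SE, adjusted p = 0.000265). PreOP 3 was the lowest of the preOP libraries for both. Of 25 T and NK lymphocyte genes, 5 were lower and 2 higher. The lower count was 9 without delayed 1 and 2 or 3 without any 1 of the other 5 libraries, and the higher count was 1 without preOP 2 and 0 without preOP 3. Nkg7, a granule membrane protein of cytotoxic cells, fell from 90.3, 92.6 and 61.6 CPM to 4.11, 0.928 and 0.766 CPM (log2 difference -5.38 ± 0.96 SE, adjusted p = 0.0023). Cd8a was higher, at 152, 103.7 and 148 CPM against 16.3, 11.8 and 13 CPM, and was not called without preOP 2 or preOP 3. None of the CD3 chains of the T cell receptor was called, as for Cd3e (log2 difference -0.24 ± 0.82 SE, adjusted p = 0.858).

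**Figure D4:**
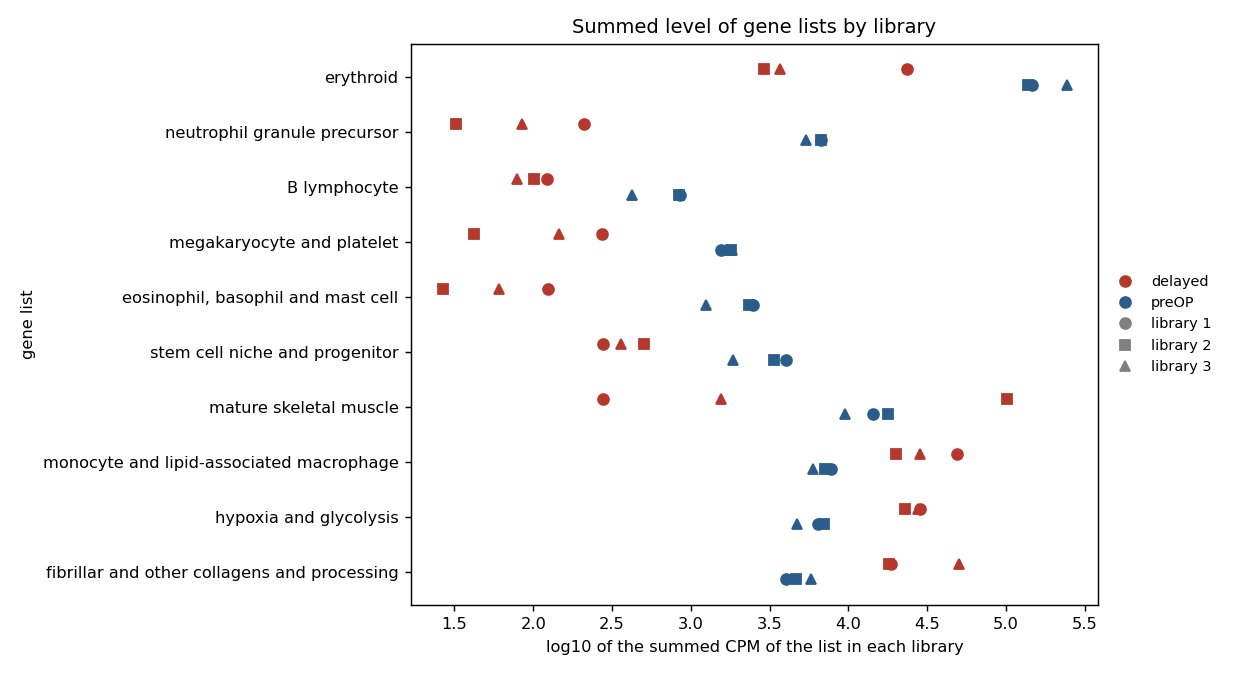
Summed CPM of 10 gene lists in each of the 6 libraries, as log10. The 6 blood-forming and niche lists lie lower in all 3 delayed libraries than in the 3 preOP libraries, the macrophage, hypoxia and collagen lists lie higher, and mature skeletal muscle places delayed 2 above and delayed 1 and 3 below preOP.

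The genes by which marrow stroma holds blood stem cells were also lower. On the stem cell niche and progenitor list, 9 of 14 tested genes were lower and 1 was higher, with a median log2 difference of -2.45. Cxcl12, the chemokine that retains stem cells, stood at 47.1, 172 and 56 CPM in delayed and 2724, 2337 and 1094 CPM in preOP (log2 difference -4.48 ± 0.84 SE, adjusted p = 0.00303). Lepr, the leptin receptor that marks marrow stroma, stood at 0.384, 1.8 and 0.363 CPM against 98.9, 73.9 and 22.6 CPM (log2 difference -6.28 ± 1.12 SE, adjusted p = 0.00226). Kitlg, the stem cell factor, was 5.73-fold lower. Delayed 2 was the highest of the delayed libraries and preOP 3 the lowest of the preOP libraries for all 3 genes. The member called higher was Nes, nestin, which is also known from vessels and regenerating muscle, and 8 of 19 alternatives ended its call, including leaving out delayed 3 or any 1 preOP library.

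Most genes of dividing cells were lower. Of 26 cell cycle genes tested, 20 were called lower and none higher, and in all 26 the 3 delayed libraries lay below the 3 preOP libraries without overlap. The median log2 difference was -1.84. Mki67, the proliferation marker, stood at 157, 135 and 163 CPM in delayed and 1822, 1724 and 2052 CPM in preOP (log2 difference -3.62 ± 0.46 SE, adjusted p = 0.000403). Ccne1, the cyclin that starts DNA replication, was 16.4-fold lower, and Tyms, which makes thymidylate, stood at 10.7, 10.8 and 10.8 CPM against 78.6, 75.9 and 85.9 CPM (log2 difference -2.90 ± 0.42 SE, adjusted p = 0.0008). The count of lower genes depended on the libraries in the fit: it was 12 or 13 without any 1 of the 6 libraries and ranged from 8 to 26 over all alternatives.

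Most genes of macrophages that take up lipid and debris were higher. Of 24 tested genes on the monocyte and lipid-associated macrophage list, 16 were called higher and none lower, with a median log2 difference of 3.29. Their summed level was 48630.0, 19992 and 28468 CPM in delayed and 7737, 7077 and 5997 CPM in preOP. Spp1, osteopontin, a secreted phosphoprotein of both activated macrophages and bone, stood at 13799, 5355 and 7003 CPM in delayed and 121, 101 and 108 CPM in preOP (log2 difference 6.31 ± 1.48 SE, adjusted p = 0.00938). Gpnmb, a lysosomal glycoprotein of such macrophages, stood at 4634, 1538 and 2561 CPM against 148, 120.2 and 74.3 CPM (log2 difference 4.67 ± 0.64 SE, adjusted p = 0.000601). Trem2, their lipid-sensing receptor, was 34-fold higher, and Apoe, the lipid carrier, was 28.1-fold higher. Delayed 1 was the highest and delayed 2 the lowest of the 3 delayed libraries for these 4 genes.

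Arg1, arginase 1, which consumes arginine in wound macrophages, rose from 0.987, 0.897 and 0.678 CPM to 681, 71.1 and 228 CPM (log2 difference 8.56 ± 1.32 SE, adjusted p = 0.00104), a 378-fold difference. Nos2, the nitric oxide synthase that uses the same substrate, was not called: delayed 2 lay below the preOP libraries, with 273, 10.2 and 76.7 CPM in delayed against 14.5, 14.2 and 11 CPM (log2 difference 3.18 ± 1.31 SE, adjusted p = 0.0937). Of 12 arginine and polyamine genes, 2 were higher, Arg1 and Sat1, and 4 without delayed 2. Mmp12, the macrophage elastase, stood at 26.9, 41.6 and 40.7 CPM against 0.247, 0.0472 and 0 CPM (log2 difference 8.39 ± 1.60 SE, adjusted p = 0.00326).

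Macrophages that reside in tissue showed a division within their list. Of 16 tested genes, 6 were higher and 3 lower. The scavenger receptor gene Msr1 rose from 11.2, 9.3 and 3.7 CPM to 300.2, 89.7 and 157 CPM (log2 difference 4.50 ± 0.80 SE, adjusted p = 0.00227), and Lyve1, a hyaluronan receptor of perivascular macrophages and lymphatic vessels, rose from 14.2, 15.7 and 14.2 CPM to 137, 116 and 106 CPM (log2 difference 3.03 ± 0.31 SE, adjusted p = 0.000133). The lower members are known from macrophages of the marrow's red cell islands. They were Slc40a1, Vcam1, an adhesion molecule also found on marrow stroma, at 8.56, 39.6 and 19.9 CPM against 508, 336 and 198 CPM (log2 difference -3.94 ± 0.65 SE, adjusted p = 0.00147), and Cd5l, a secreted scavenger protein, at 2, 0.464 and 0.766 CPM against 109, 95.5 and 55.8 CPM (log2 difference -6.31 ± 1.08 SE, adjusted p = 0.00178). C1qa, C1qb and C1qc, the subunits of complement C1q made by many macrophages, were not called.

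**Figure D5:**
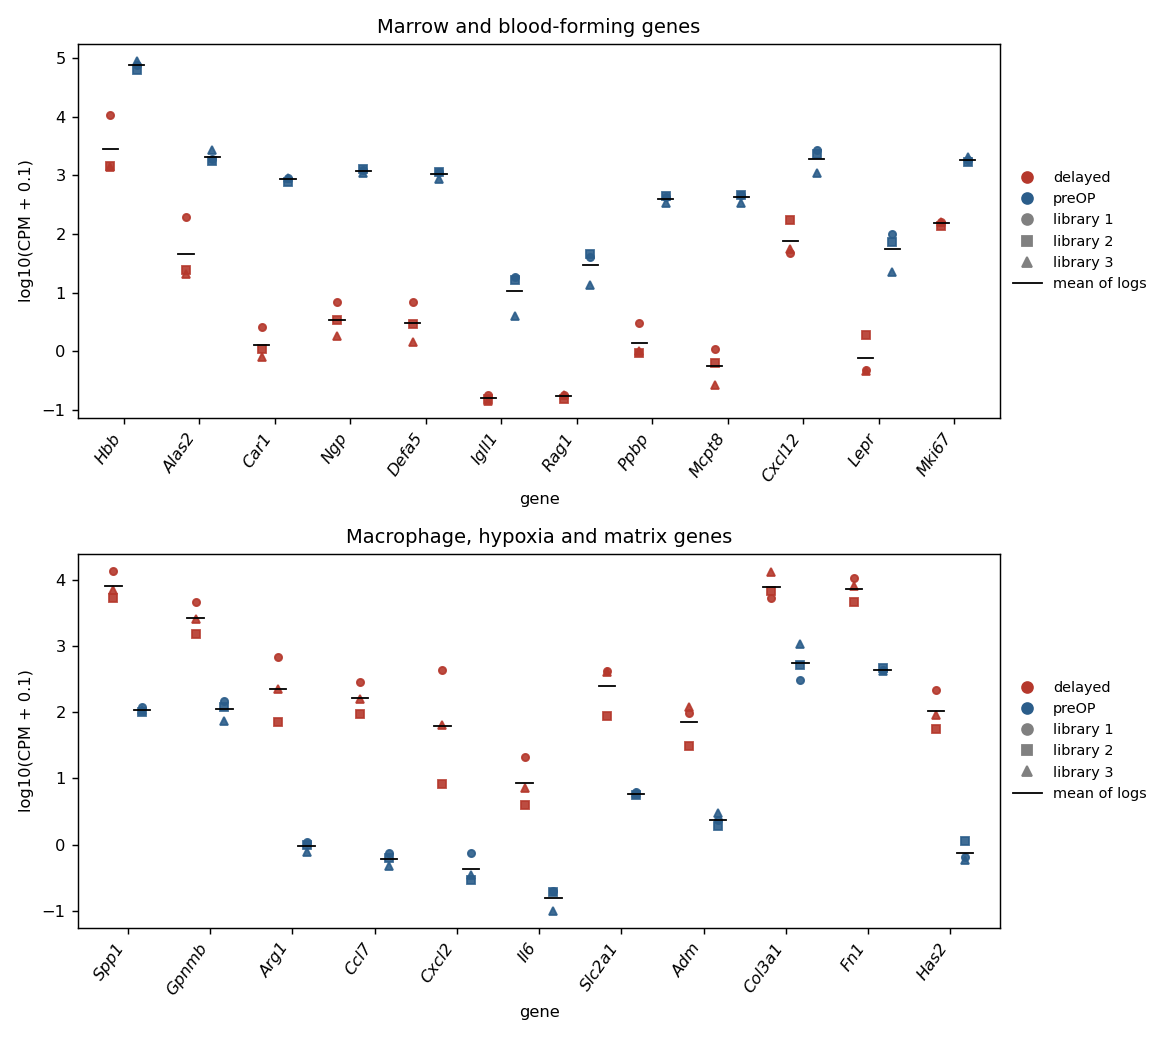
Level of 23 genes in the 3 delayed and 3 preOP libraries, as log10 of CPM plus 0.1, with the mean of the logs as a line. All 12 marrow and blood-forming genes lie lower in every delayed library, and all 11 macrophage, hypoxia and matrix genes lie higher, with delayed 2 the lowest delayed library for 10 of the latter.

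Of 23 chemokine genes tested, 13 were called higher (8 without preOP 3) and 2 lower (1 without delayed 3), with a median log2 difference of 2.00. Cxcl2, which draws neutrophils, stood at 428, 8.15 and 64.3 CPM in delayed and 0.641, 0.189 and 0.247 CPM in preOP (log2 difference 8.82 ± 2.03 SE, adjusted p = 0.00862). The spread among the delayed libraries was wide, and limma-voom did not call the gene. Ccl7 and Ccl12 draw monocytes. Ccl7 rose from 0.641, 0.519 and 0.37 CPM to 281, 94.5 and 158 CPM (log2 difference 8.42 ± 0.93 SE, adjusted p = 0.000209), and Ccl12 from 0.592, 0.189 and 0.493 CPM to 47.4, 12.5 and 31.4 CPM (log2 difference 6.15 ± 1.21 SE, adjusted p = 0.00384). Ccl2, the best-known chemokine for monocytes, was 14.7-fold higher, at 472, 95.3 and 175 CPM against 29.5, 16.1 and 4.93 CPM. The 2 lower members were Cxcl12 and Cx3cl1. Of 15 receptors tested, 2 were higher and 2 lower, 13.3% each and so close to the shares over all genes. Each count ran from 0 to 4 when 1 library was left out: 4 were higher without delayed 2 and 4 lower without delayed 1. Cx3cr1, a monocyte receptor, was 8.38-fold higher and lost its call in 6 of 19 alternatives, including leaving out delayed 1 or any 1 preOP library.

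The upstream region of Cxcl2 is shown because the gene had the largest fitted rise among the chemokines, and its letters hold a match to GGGANTTCC, a form of the site bound by NF-kB (searched on both strands, capitals mark the match). It is the 250 bases before the annotated start, from RefSeq on build GRCr8, chr14:17467256-17467505, minus strand, written 5′ to 3′.
Cxcl2: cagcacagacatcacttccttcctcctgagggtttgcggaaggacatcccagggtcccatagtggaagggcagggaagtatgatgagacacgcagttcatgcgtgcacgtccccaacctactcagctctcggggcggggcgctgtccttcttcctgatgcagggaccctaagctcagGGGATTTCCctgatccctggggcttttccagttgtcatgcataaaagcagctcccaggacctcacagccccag
The motif stood in 1.89% of 9860 such windows of tested genes and in 1 of the 10 windows found for chemokine genes called higher. A match is a description of the letters only.

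Of 16 inflammatory cytokine genes tested, 8 were higher and 1 (Il7, a growth factor of B cell precursors) was lower, with a median log2 difference of 2.37. The higher count was 5 without delayed 1, preOP 1 or preOP 2 and 3 without preOP 3. Il6 stood at 21.3, 3.92 and 7.06 CPM in delayed and 0.0987, 0.0944 and 0 CPM in preOP (log2 difference 7.18 ± 1.38 SE, adjusted p = 0.00334). Il33, an alarm signal released by damaged stromal cells, stood at 239.9, 207 and 274 CPM against 30.1, 21 and 20.0 CPM, the most even of the cytokine values named here (log2 difference 3.34 ± 0.36 SE, adjusted p = 0.000171). Tnf and Il1rn, the natural antagonist of interleukin 1, passed the threshold narrowly. Tnf stood at 25.6, 3.46 and 7.14 CPM against 1.63, 2.08 and 2.71 CPM (log2 difference 2.50 ± 0.84 SE, adjusted p = 0.0449); without delayed 1 its log2 difference was 1.48 and the call was lost. Il1b was not called, with delayed 2 below the preOP libraries and delayed 1 and 3 above them: its levels were 238, 10.6 and 41 CPM in delayed and 27.4, 22.9 and 18.7 CPM in preOP (log2 difference 2.07 ± 1.11 SE, adjusted p = 0.193). Of 18 genes for Toll-like receptors and inflammasomes, 3 were higher and none lower, and 8 were higher without delayed 2. Cd14, the co-receptor for bacterial lipopolysaccharide, rose from 15.4, 11.8 and 10.2 CPM to 228, 66.4 and 142 CPM (log2 difference 3.54 ± 0.51 SE, adjusted p = 0.00077), and Tlr2 was 6.74-fold higher.

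Prostaglandin and leukotriene genes gave no single direction. Among 18 tested, 4 were higher (22.2%) and 3 lower (16.7%, close to the 15.6% over all genes), and 1 was lower without delayed 3. Ptges, the last enzyme towards prostaglandin E2, rose from 0.247, 0.472 and 0.616 CPM to 6.41, 5.88 and 11.4 CPM (log2 difference 4.14 ± 0.65 SE, adjusted p = 0.0012). Hpgd, which breaks prostaglandin E2 down, rose as well, to 6.22, 19.3 and 11.5 CPM from 0.493, 0.519 and 0.863 CPM (log2 difference 4.30 ± 0.70 SE, adjusted p = 0.00144). Hpgds, the prostaglandin D2 synthase of mast cells and related cells, fell from 23.8, 19.1 and 8.26 CPM to 0.499, 0.309 and 0.0807 CPM (log2 difference -5.81 ± 1.37 SE, adjusted p = 0.0095). Ptgs2, the inducible cyclooxygenase, did not pass the threshold although its libraries did not overlap, at 72.5, 7.17 and 31.7 CPM against 4, 1.65 and 0.801 CPM (log2 difference 4.10 ± 1.44 SE, adjusted p = 0.0542).

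Of 30 hypoxia and glycolysis genes tested, 24 were called higher and 1 lower, with a median log2 difference of 2.76, and the summed level of the list was 28543, 22739 and 27537 CPM in delayed and 6389, 7031 and 4748 CPM in preOP. Slc2a1, the glucose transporter GLUT1, stood at 425, 88.9 and 403 CPM against 6.07, 5.43 and 5.86 CPM (log2 difference 5.72 ± 0.99 SE, adjusted p = 0.00196). Adm, adrenomedullin, a vasodilating peptide induced by low oxygen, rose from 2.22, 1.79 and 2.9 CPM to 98.2, 31.3 and 118 CPM (log2 difference 5.16 ± 0.50 SE, adjusted p = 0.000115). Bnip3, a mitochondrial protein that marks mitochondria for removal, rose from 71.4, 52.9 and 46.2 CPM to 658, 797 and 626 CPM (log2 difference 3.61 ± 0.32 SE, adjusted p = 8.03e-05), with the 3 delayed libraries close to each other. P4ha2, a collagen prolyl hydroxylase, was 24.8-fold higher and Vegfa was 7.52-fold higher.

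The enzymes of glycolysis are abundant in both groups. Eno1, enolase, was 7.13-fold higher, at 2826, 1036 and 3057 CPM against 312, 359.9 and 298 CPM (log2 difference 2.83 ± 0.69 SE, adjusted p = 0.0112). Ldha, which turns pyruvate into lactate, stood at 3112, 2122 and 2527 CPM against 769, 829 and 591 CPM (log2 difference 1.83 ± 0.51 SE, adjusted p = 0.0216), and its call was lost without any 1 of the preOP libraries. Gapdh was 3.74-fold higher and lost its call in 9 of 19 alternatives, including leaving out any 1 of the 6 libraries. The lower member was Hk1, the constitutive hexokinase (log2 difference -1.38 ± 0.30 SE, adjusted p = 0.00646), with a log2 difference of -0.90 without delayed 2.

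The 250 bases before the start of Ldha, Slc2a1 and Bnip3 are shown because these 3 called members carry ACGTG, the core of the site bound by hypoxia-inducible factors (searched on both strands). Capitals mark each match, CACGT being the other strand of ACGTG, and CACGTG holding the motif on both strands with overlap. The windows are from RefSeq on build GRCr8, written 5′ to 3′: Ldha chr1:106507842-106508091 on the plus strand with 3 matches, Slc2a1 chr5:138002272-138002521 on the plus strand with 1, and Bnip3 chr1:203154963-203155212 on the minus strand with 2.
Ldha: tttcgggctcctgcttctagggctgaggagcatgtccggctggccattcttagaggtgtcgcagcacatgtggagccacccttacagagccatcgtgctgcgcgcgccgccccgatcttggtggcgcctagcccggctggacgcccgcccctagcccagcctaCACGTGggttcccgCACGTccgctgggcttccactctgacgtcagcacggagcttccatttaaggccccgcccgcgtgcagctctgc
Slc2a1: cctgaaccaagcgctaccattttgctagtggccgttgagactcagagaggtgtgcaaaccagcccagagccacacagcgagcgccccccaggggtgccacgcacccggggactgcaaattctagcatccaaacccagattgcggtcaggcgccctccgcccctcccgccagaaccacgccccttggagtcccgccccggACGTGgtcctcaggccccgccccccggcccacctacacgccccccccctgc
Bnip3: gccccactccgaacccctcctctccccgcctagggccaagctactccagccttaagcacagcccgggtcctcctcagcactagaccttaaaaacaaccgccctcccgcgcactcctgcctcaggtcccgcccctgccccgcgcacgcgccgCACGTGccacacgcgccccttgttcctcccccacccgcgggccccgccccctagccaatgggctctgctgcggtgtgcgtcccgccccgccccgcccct
ACGTG stood in 8 of the 22 windows found for the hypoxia and glycolysis genes called higher (36.4%) and in 21.6% of the windows of all tested genes. That share was not particular to this list. It was 37.5% (3 of 8) for heat shock and unfolded protein genes called higher and 42.9% (3 of 7) for BMP and TGF-beta genes called lower. Lower shares were found too, such as 14.3% (2 of 14) for collagen genes called higher and 0 of 10 for neutrophil granule genes called lower. Over all called genes it stood in 303 of 1212 windows of higher genes and in 273 of 1566 windows of lower genes. TGANTCA, the AP-1 site, stood in 7.01% of the windows of higher genes, 4.47% of those of lower genes and 4.82% of all tested. The erythroid factor site AGATAA stood in 4 of 16 windows of erythroid genes called lower and in 6.04% of all tested. Other lists held it as often: it stood in 3 of 7 windows of megakaryocyte and platelet genes called lower. For inflammatory cytokine genes called higher it stood in 2 of 6, and for cell cycle genes called lower in 0 of 14. These shares were not tested.

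Respiratory chain genes gave no such picture. None of 26 tested was called in edgeR, and the median log2 difference was 0.42; without delayed 2, the library rich in muscle RNA, it was also none. Without delayed 1 or delayed 3, 2 were higher. Without delayed 2 and nonunion 2, 2 were lower and the median was -0.32, and with only delayed 1, delayed 3 and preOP 6 were lower and 1 higher. At an unadjusted p below 0.05 the count was 2, and DESeq2 called 2 higher and 0 lower. Atp5f1b, a subunit of ATP synthase, stood at 784, 3680.5 and 770.1 CPM in delayed and 1308, 1218 and 1187 CPM in preOP (log2 difference 0.50 ± 0.55 SE, adjusted p = 0.544), with only delayed 2 above preOP. Without delayed 2 its log2 difference was -0.44.

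Stress genes rose in part. Of 15 genes driven by the oxidative stress factor NRF2, 6 were higher and 1 lower, and without delayed 2 the higher count was 10. Nqo1, a quinone reductase, rose from 12.5, 10.5 and 11.7 CPM to 86.2, 39.1 and 63.6 CPM (log2 difference 2.45 ± 0.30 SE, adjusted p = 0.000343), and Txnrd1, thioredoxin reductase, was 4.53-fold higher. Gclm, which helps to make glutathione, was the lower member, at 27.2, 27.8 and 26.6 CPM against 106, 100.5 and 129.8 CPM (log2 difference -2.04 ± 0.22 SE, adjusted p = 0.000202). Of 18 heat shock and unfolded protein genes, 9 were higher and 1 (Asns) was lower, with a median log2 difference of 1.14 that was unchanged with Hspa1b at its bound. Without preOP 2 or preOP 3, 3 of them were called higher. Hspa1a, the inducible HSP70, rose from 6.32, 2.31 and 4.93 CPM to 132, 55.4 and 139.9 CPM (log2 difference 4.59 ± 0.46 SE, adjusted p = 0.000133). Its near-identical copy Hspa1b had 0 reads in preOP and 54.8, 7.22 and 43.6 CPM in delayed, at least 223-fold higher against the floor of 3 reads per library; the division of reads between the copies is uncertain. Of 18 immediate early genes, 6 were higher and none lower (9 higher without delayed 2). Atf3 was 16.3-fold higher (log2 difference 4.03 ± 0.66 SE, adjusted p = 0.00145), Maff was 8.76-fold higher, and Fos, the best known of them, was not called (log2 difference 1.07 ± 0.47 SE, adjusted p = 0.112).

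Fibrillar collagens and the enzymes that process them formed the list with the highest share of higher genes. Of 21 tested, 19 were called higher (90.5%) and none lower, with a median log2 difference of 2.51. The count was again 19 without delayed 2, and it ran from 13 to 19 over all alternatives. The summed level of the list was 18576, 18219 and 49980.0 CPM in delayed and 3999, 4621 and 5826 CPM in preOP. Col3a1, the collagen of early repair tissue, stood at 5322, 6695 and 13026 CPM in delayed and 307, 516 and 1077 CPM in preOP (log2 difference 3.72 ± 0.64 SE, adjusted p = 0.0018). Col5a3 rose from 20.5, 26.3 and 26.1 CPM to 410.1, 389 and 1126 CPM (log2 difference 4.72 ± 0.53 SE, adjusted p = 0.000209), and Loxl2, which cross-links collagen, from 11, 15.7 and 27.1 CPM to 158, 125 and 424 CPM (log2 difference 3.72 ± 0.75 SE, adjusted p = 0.00434). Delayed 3 was the highest library for all 3 genes. The 2 members not called were Col4a1, a basement membrane chain (log2 difference 0.84 ± 0.64 SE, adjusted p = 0.362), and Loxl3 (log2 difference -0.34 ± 0.29 SE, adjusted p = 0.416).

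Of 22 matricellular and activated fibroblast genes, 10 were higher and none lower. Fn1, fibronectin, on which fibroblasts migrate into a clot, rose from 429, 469 and 420.0 CPM to 10634, 4638 and 8183 CPM (log2 difference 4.15 ± 0.58 SE, adjusted p = 0.000674). Fbn2, a microfibril protein, was 12.4-fold higher. Tnc, tenascin C, was 9.74-fold higher and lost its call in 8 of 19 alternatives, including limma-voom and leaving out delayed 1, delayed 3 or any 1 preOP library. Postn, periostin, was not called: its levels were 304, 415 and 701 CPM in delayed and 206, 402 and 607 CPM in preOP, and the groups overlapped (log2 difference 0.22 ± 0.60 SE, adjusted p = 0.815).

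Of 10 hyaluronan genes tested, 6 were higher, none lower, with a median log2 difference of 2.75. Has2, the main hyaluronan synthase, stood at 219, 55.4 and 90.7 CPM in delayed and 0.543, 1.04 and 0.493 CPM in preOP (log2 difference 7.43 ± 0.98 SE, adjusted p = 0.000475), a 173-fold difference. Tnfaip6 and Vcan encode proteins that bind and cross-link hyaluronan in inflamed matrix. Tnfaip6 was 57-fold higher (log2 difference 5.83 ± 0.72 SE, adjusted p = 0.000371) and Vcan rose from 33.9, 23.9 and 29.2 CPM to 1002, 491 and 916 CPM (log2 difference 4.79 ± 0.72 SE, adjusted p = 0.00089). The small leucine-rich proteoglycans split: Dcn and Bgn were higher and Omd and Fmod lower, of 8 tested (1 higher without any 1 of delayed 3 and the preOP libraries). Bgn, biglycan, stood at 502, 564 and 963 CPM against 135, 144 and 149 CPM (log2 difference 2.24 ± 0.30 SE, adjusted p = 0.000512). Fmod, fibromodulin, which is known from tendon, bone and cartilage, fell from 69.7, 85.6 and 135 CPM to 3.95, 12.4 and 2.86 CPM (log2 difference -3.92 ± 0.65 SE, adjusted p = 0.00159).

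Among matrix proteases and their inhibitors, 5 of 15 metalloproteinases were higher and 2 lower, and 7 of 13 TIMP and ADAMTS genes were higher and none lower. Mmp19 rose from 12.3, 10.6 and 7.15 CPM to 130.3, 108 and 199.8 CPM (log2 difference 3.86 ± 0.34 SE, adjusted p = 8.03e-05). The lower metalloproteinases were Mmp8, the neutrophil collagenase, and Mmp13, the collagenase of cartilage and bone. Mmp8 lost its call in 12 of 19 alternatives and Mmp13 in 14 of 19, both of them without each of the 6 libraries in turn. Timp1 rose from 12.8, 10.004 and 14.6 CPM to 316, 187 and 326 CPM (log2 difference 4.47 ± 0.58 SE, adjusted p = 0.000443). Adamts15 was 21.2-fold higher, and Adamts4, an aggrecanase, was 12.4-fold higher.

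Genes of coagulation and fibrinolysis moved in both directions. Of 18 tested, 5 were higher and 3 lower; 8 were higher without delayed 2. F3, tissue factor, which starts coagulation, rose from 4.1, 3.59 and 5.18 CPM to 68.5, 63.7 and 107 CPM (log2 difference 4.22 ± 0.52 SE, adjusted p = 0.000374), and F7, its plasma partner, fell from 3.85, 5.19 and 8.32 CPM to 0.0768, 0.155 and 0.0807 CPM (log2 difference -5.75 ± 0.60 SE, adjusted p = 0.000156). Plat, the tissue plasminogen activator, was 21.9-fold higher (log2 difference 4.45 ± 0.41 SE, adjusted p = 9.5e-05). The fibrinogen genes, made by liver, had too few reads to be tested. Of 19 complement genes, 4 were higher (2 without preOP 1) and 2 lower (none without delayed 3, preOP 1 or preOP 2, and 1 without preOP 3). C3ar1, the receptor for C3a on myeloid cells, was 27.8-fold higher (log2 difference 4.80 ± 0.60 SE, adjusted p = 0.000389).

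Of 18 endothelial genes tested, 5 were lower and 1 (Eng) was higher, with a median log2 difference of -1.57; the lower count was 8 without delayed 2 and 2 without delayed 1 or any 1 preOP library, and ran up to 13 over the alternatives. Stab2, a scavenger receptor of marrow sinusoids, stood at 2.3, 0.361 and 0.645 CPM in delayed and 43.7, 37.1 and 28.1 CPM in preOP (log2 difference -5.02 ± 1.16 SE, adjusted p = 0.00868). Vwf, von Willebrand factor, which platelets and their precursors also carry, stood at 8.1, 45.6 and 12.1 CPM against 202, 254 and 266 CPM (log2 difference -3.46 ± 0.70 SE, adjusted p = 0.00447). Pecam1, which is found on all vessels, was not called, at 31.2, 103 and 47.5 CPM against 90.1, 79.9 and 73.5 CPM (log2 difference -0.42 ± 0.48 SE, adjusted p = 0.556). Delayed 2 was the highest delayed library for Vwf and Pecam1. Of 14 pericyte and smooth muscle genes, 2 were higher, Acta2 and Cnn1, and none lower (1 higher without delayed 3, preOP 1 or preOP 3, and 1 lower without delayed 2). The higher share, 14.3%, was close to that over all genes.

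Several growth factors for vessels were higher. Of 23 angiogenic signalling genes tested, 7 were higher and 2, Kdr and Esm1, lower (1 lower without any 1 library except delayed 2). Vegfa stood at 613, 387 and 759 CPM in delayed and 80.5, 80.1 and 73 CPM in preOP (log2 difference 2.91 ± 0.40 SE, adjusted p = 0.000606). Vegfd, a factor for lymphatic vessels, rose from 0.0987, 0.33 and 0.185 CPM to 21.5, 28.3 and 42 CPM (log2 difference 7.17 ± 0.75 SE, adjusted p = 0.000163). Angptl4, which inhibits lipoprotein lipase and is induced by low oxygen and by fatty acids, rose from 16.8, 11.6 and 10.1 CPM to 345, 193 and 630.0 CPM (log2 difference 4.92 ± 0.55 SE, adjusted p = 0.000209). Pgf, placental growth factor, was 12.7-fold higher and Apln, apelin, 10.2-fold higher. Kdr, the main receptor for VEGF-A, was 3.82-fold lower (log2 difference -1.93 ± 0.63 SE, adjusted p = 0.0392), and 10 of 19 alternatives ended that call, leaving out delayed 1, delayed 3 or any 1 preOP library among them.

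The bone growth factor pathways were divided evenly. Of 38 BMP and TGF-beta genes tested, 8 were higher and 8 lower. The higher count was 5 without any 1 of delayed 3 and the preOP libraries, and the lower count was 3 or 4 without any 1 library except delayed 2. Among ligands, Tgfb2 rose from 5.72, 7.46 and 8.14 CPM to 24.4, 57.8 and 34.1 CPM (log2 difference 2.45 ± 0.47 SE, adjusted p = 0.00338) and Tgfb3 was 4.36-fold higher, while Bmp4 was 5.14-fold lower (log2 difference -2.36 ± 0.64 SE, adjusted p = 0.018). Bmp2, a ligand that fracture repair needs, was not called at 3.91, 1.91 and 2.7 CPM against 6.71, 4.25 and 1.73 CPM (log2 difference -0.57 ± 0.65 SE, adjusted p = 0.547). Bmpr1b, a BMP receptor, rose from 0.247, 0.0472 and 0 CPM to 3.03, 9.85 and 2.58 CPM (log2 difference 5.58 ± 1.08 SE, adjusted p = 0.00345). Among inhibitors, Grem1 fell from 25.3, 25.3 and 10.7 CPM to 0.883, 0.774 and 0.605 CPM (log2 difference -4.75 ± 0.70 SE, adjusted p = 0.000823). Tgfbi, a matrix protein induced by TGF-beta, stood at 1803, 753 and 1712 CPM against 131, 128 and 136 CPM (log2 difference 3.44 ± 0.43 SE, adjusted p = 0.000389).

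Of 34 Wnt genes, 4 were higher and 4 lower, 11.8% each and so close to the shares over all genes. The lower count was 2 without any 1 library except delayed 2. The secreted Wnt inhibitor Sfrp2 rose from 3.65, 5.71 and 6.35 CPM to 53, 115 and 219.8 CPM (log2 difference 4.63 ± 0.59 SE, adjusted p = 0.000411), the receptor gene Fzd2 was 16.2-fold higher, and Nkd2, an intracellular inhibitor, fell from 28.4, 33.2 and 37.2 CPM to 4.91, 3.09 and 4.64 CPM (log2 difference -2.96 ± 0.30 SE, adjusted p = 0.000133). Of 18 IGF and FGF genes, 5 were higher (2 or 3 without any 1 of delayed 3 and the preOP libraries) and 2 lower. The lower genes were both FGF receptors: Fgfr2, which bone-forming cells use, stood at 1.92, 5.98 and 4.15 CPM against 36.4, 34.3 and 38.2 CPM (log2 difference -3.18 ± 0.58 SE, adjusted p = 0.00254), and Fgfr3, known from cartilage and bone, was 10.7-fold lower. Igfbp3, the main carrier of IGF-1, was 4.88-fold higher (log2 difference 2.29 ± 0.40 SE, adjusted p = 0.00195).

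Skeletal muscle genes cannot be read from the 3 delayed libraries together. None of 26 mature muscle genes was called in edgeR with all libraries, and the median log2 difference was 1.14; without delayed 2, 21 of 26 were lower. At an unadjusted p below 0.05 the count was 1, and DESeq2 called 0 higher and 1 lower. Acta1, skeletal actin, shows the split, with 40.9, 11559 and 267 CPM in delayed and 1479, 2308 and 1627 CPM in preOP (log2 difference 1.13 ± 1.48 SE, adjusted p = 0.607). Myh2, a fast myosin, stood at 1.38, 9599.8 and 2.82 CPM against 217, 328 and 332 CPM (log2 difference 3.45 ± 2.22 SE, adjusted p = 0.276), and its log2 difference was -6.88 without delayed 2. Among 15 muscle regeneration genes edgeR called Tnnt2 alone, higher in delayed (log2 difference 5.75 ± 1.79 SE, adjusted p = 0.033), with delayed 2 the highest at 1.5, 8.15 and 2.62 CPM in delayed and 0.0493, 0.0944 and 0.0616 CPM in preOP. DESeq2 called 4 members higher and 0 lower. In edgeR no member was called higher without delayed 2 or any 1 preOP library; 2 were higher without delayed 1, and 2 were lower without delayed 2.

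Of 16 adipocyte genes, 15 had lower fitted levels in delayed, and edgeR called only Retn, resistin (log2 difference -6.34 ± 1.87 SE, adjusted p = 0.0264), a call lost without any 1 of the 6 libraries. At an unadjusted p below 0.05 the count was 7, and DESeq2 called 3 lower and 0 higher. Adipoq, adiponectin, stood at 0.652, 2.63 and 0.242 CPM against 157, 98.6 and 69.8 CPM and did not pass (log2 difference -6.55 ± 2.32 SE, adjusted p = 0.0562). Without delayed 2 and the nonunion library rich in ribosomal RNA, nonunion 2, 11 of the 16 were lower. The level of Adipoq was 2308 CPM in nonunion 2 and 0.395 and 4.84 CPM in the other two nonunion libraries, and all 3 enter the estimate of the spread. Leaving out delayed 2 and nonunion 2 raised the counts over all genes to 2749 higher and 2665 lower.

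Of 24 interferon response genes, 3 were higher and 3 lower, 12.5% each and so close to the shares over all genes. The higher count was 7 without delayed 2 and 0 without delayed 3, preOP 2 or preOP 3. Rsad2, an antiviral enzyme, fell from 635, 647 and 944 CPM to 74.3, 22.1 and 45.7 CPM (log2 difference -3.97 ± 0.69 SE, adjusted p = 0.00193). Cxcl9 and Cxcl10, chemokines induced by interferon, were higher; Cxcl10 was not called by limma-voom or without delayed 3, preOP 2 or preOP 3, and its log2 difference without delayed 3 was 2.19. Of 13 genes of MHC class II presentation, Ctss, cathepsin S, was called higher (log2 difference 2.18 ± 0.47 SE, adjusted p = 0.0062) and none was lower (3 higher without delayed 2). Cd74, the class II chaperone, was not called (log2 difference -0.33 ± 0.42 SE, adjusted p = 0.597). Among 12 Schwann cell and nerve genes, 3 were higher and 3 lower: Ncam1, a cell adhesion molecule also found on regenerating muscle, rose from 5.92, 8.35 and 9.12 CPM to 32.5, 117 and 81.9 CPM (log2 difference 3.30 ± 0.84 SE, adjusted p = 0.0137), and Gfap, an intermediate filament of glia, fell from 37.7, 52.2 and 83.6 CPM to 0.153, 0.155 and 0 CPM (log2 difference -9.08 ± 0.73 SE, adjusted p = 6.74e-05).

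The genes with the largest fitted differences included several that are on none of the lists. Tm4sf19, a membrane protein also known from osteoclasts, had 1 read in all 3 preOP libraries and stood at 9.67, 4.49 and 6.13 CPM in delayed, a ratio from pooled reads of 403-fold with a 95% interval of 72.0 to 15956. Wt1, the Wilms tumour transcription factor, likewise had 1 read in preOP and stood at 4.45, 2.32 and 9.72 CPM in delayed, a ratio of 330.1-fold with an interval of 58.9 to 13070. Psca, a surface protein, rose from 0.0987, 0.0472 and 0.0616 CPM to 24.2, 10.1 and 9.72 CPM (log2 difference 7.60 ± 1.53 SE, adjusted p = 0.0044). In the other direction, Slc30a10, a manganese exporter, had 0 reads in delayed and 11.4, 13.5 and 22.3 CPM in preOP, at least 121-fold lower against the same floor. Bex4 fell from 31.4, 26.1 and 36.8 CPM to 0.0768, 0.0516 and 0.0403 CPM, with the smallest adjusted p over all tested genes together with Bglap (log2 difference -8.97 ± 0.48 SE, adjusted p = 5.86e-06).

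The most abundant higher genes per transcript length included 3 small proteins of the cytosol, beside Spp1, Fth1 and Gapdh. Lgals1, galectin 1, a lectin of stromal cells, rose from 71.7, 74.3 and 92.8 CPM to 772, 637 and 854 CPM (log2 difference 3.24 ± 0.46 SE, adjusted p = 0.000691). S100a6 rose from 79.5, 85.4 and 72.1 CPM to 591, 450.4 and 571 CPM (log2 difference 2.77 ± 0.54 SE, adjusted p = 0.00369) and S100a11 from 126, 117 and 82 CPM to 774, 277 and 601 CPM (log2 difference 2.35 ± 0.47 SE, adjusted p = 0.00422); both are calcium-binding proteins. On the lower side the most abundant were the globin genes Hbb, Hba-a1, Hba-a2 and Hbbl1 together with S100a8 and S100a9. Hbbl1 stood at 1068, 161 and 116 CPM against 10827, 8996 and 12628 CPM (log2 difference -4.59 ± 0.82 SE, adjusted p = 0.00235).

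The delayed hematoma was also set directly against the other hematomas, in a fit of the 9 hematoma libraries with 12474 genes. Against the normal healing hematoma, 334 genes (2.68%) were higher and 555 (4.45%) lower. In the fit of all 12 libraries with 12846 genes, the normal hematoma itself differed from preOP in 42.6% of the genes tested. Spp1, Has2 and Col3a1, higher in delayed than in preOP, were also higher in normal (log2 differences from preOP 6.46, 7.02 and 4.19). Delayed was not called against normal for these 3 genes in edgeR's hematoma fit (adjusted p = 0.958, 0.785 and 0.624). Il33, Adm and Nqo1 were called higher in delayed than in normal (adjusted p = 0.0387, 0.0481 and 0.0257). Genes of bone mineral were among those lower in delayed. Bglap stood at 79.8, 84.7 and 68.8 CPM in the normal libraries and was lower in delayed by 5.97 on the log2 scale (± 0.39 SE, adjusted p = 0.000467). Mepe stood at 106, 93.7 and 99 CPM in normal (log2 difference -8.79 ± 0.75 SE, adjusted p = 0.00131), and Ibsp at 870.1, 907 and 1184 CPM (log2 difference -8.24 ± 0.46 SE, adjusted p = 0.000225). Vegfd went the other way: it stood at 1.2, 0.673 and 2.52 CPM in normal against 21.5, 28.3 and 42 CPM in delayed (log2 difference 4.33 ± 0.66 SE, adjusted p = 0.0109). Among genes of the marrow lists, the defensin genes Defa5 and Np4 were lower in delayed. Defa5 stood at 965, 198 and 244 CPM in normal (log2 difference -7.04 ± 0.99 SE, adjusted p = 0.0086), and Np4 differed by -6.76 on the log2 scale (± 1.06 SE, adjusted p = 0.0118). The basophil gene Mcpt8 was lower as well, with 14.4, 2.08 and 6.31 CPM in normal (log2 difference -3.79 ± 0.86 SE, adjusted p = 0.036), while Car1 (log2 difference -1.12 ± 1.08 SE, adjusted p = 0.539) and Ngp (log2 difference -4.54 ± 1.21 SE, adjusted p = 0.0556) did not pass. The number of calls depended on the libraries. It was 188, 726 and 236 without delayed 1, 2 and 3, and 208, 268 and 176 without normal 1, 2 and 3, and 2076 without delayed 2 and nonunion 2.

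Against the nonunion hematoma, edgeR called 0 genes, although 881 had an unadjusted p below 0.05, and DESeq2 called 181, of which 34 were higher in delayed and 147 lower. Ribosomal RNA took 72.2% of the reads of nonunion 2, against 1.01% and 1.33% in nonunion 1 and 3. Without delayed 2 and nonunion 2, edgeR called 4 higher and 56 lower. Bglap stood at 0.712, 1.23 and 0.579 CPM in the nonunion libraries against 1.15, 1.75 and 0.887 CPM in delayed (log2 difference 0.71 ± 0.35 SE, adjusted p = 0.757). A p that misses the threshold does not show that the hematomas were alike.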

How the data were processed

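Total RNA was extracted with Trizol, and libraries were made from 1 ug with the Illumina TruSeq kit, per the labels' protocols. The deposited tables list transcripts with a length, an effective length, TPM and an estimated count of reads, per the file headers. Per the submitters' processing notes the tools were bcl2fastq 1.8.4, FastQC, Trimmomatic and Salmon and the build was rn6; the remaining versions are not given in those notes. The authors' TPM values (abundance per transcript length) were summed per gene and used only to rank abundance. Estimated counts were summed per gene symbol and rounded: 17367 of 18321 transcripts matched 16425 RefSeq symbols, and the 954 others kept their accession, giving 17379 features. No 2 libraries held identical values.

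Genes passing edgeR's filter on low counts were fitted over all 12 libraries with TMM scaling and edgeR 4.0.16's quasi-likelihood test in R 4.3.3 (12846 genes, 8 residual degrees of freedom), which shares 1 estimate of the spread, and over the 9 hematoma libraries for the comparisons between hematomas (6 degrees of freedom). P-values were adjusted over all genes tested by Benjamini-Hochberg, and an adjusted p below 0.05 counted as a call. Alternatives used limma 3.58.1 (voom), DESeq2 1.42.0, other scalings, filters and library sets, and the deposited effective lengths as offsets. The fit was tested on simulated counts with 200 of 12846 genes changed, where 1.3% of the calls were false. Far more genes were called in the data, so that rate may not hold there. Precision is limited by 3 libraries a group and by the totals given with the results; intervals and floors (3 reads) cover counting error only.

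The members and gene lists were chosen with earlier results of these data known. Genes were named by a rule: the 8 largest differences each way with at least 5 CPM in the higher group and no overlap, the 6 most abundant by TPM each way with at least a 2-fold difference, and up to 3 called genes per list (or 2 members by abundance in a list with 0 or 1 called), leaving out ribosomal RNA. This gave 151 genes. A further 41 list members were named for their role after their values were seen. A few more list members are named as counts or contrasts beside them, also after their values were seen. Upstream sequences came from a RefSeq table on GRCr8, matched by symbol for 9860 tested genes. Some items are not reported here.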

Additional observations from a re-analysis of the deposited data

Results flagged for a closer look

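Of the 192 genes followed by name, 8 were called lower than preOP in the delayed hematoma and called higher than preOP in the normal healing hematoma (each at an adjusted p below 0.05), and the delayed and normal libraries differed in their own test within the hematoma fit (edgeR's quasi-likelihood test, Benjamini-Hochberg adjusted). The direct test was part of the rule that chose these 8, so it is not separate support. The log2 difference of delayed minus normal was -8.79 for Mepe (± 0.75 SE, adjusted p = 0.00131), -8.24 for Ibsp (± 0.46 SE, adjusted p = 0.000225), -7.76 for Slc13a5 (± 0.74 SE, adjusted p = 0.00213) and -7.55 for Dmp1 (± 1.20 SE, adjusted p = 0.012). It was -6.98 for Mmp13 (± 0.92 SE, adjusted p = 0.00809), -6.71 for Alpl (± 0.55 SE, adjusted p = 0.00126), -5.93 for Fmod (± 0.75 SE, adjusted p = 0.0066) and -4.62 for Comp (± 0.50 SE, adjusted p = 0.00376). Comp stood at 60.7, 35.8 and 38.8 CPM in normal, 1.84, 2.84 and 0.968 CPM in delayed and 2.37, 4.25 and 12.1 CPM in preOP, and its delayed and preOP libraries overlapped. Alpl stood at 307, 369 and 294 CPM in normal, and Mmp13 at 1137, 204 and 413 CPM in normal, 5.6, 2.58 and 5.97 CPM in delayed and 15.9, 24.5 and 14.2 CPM in preOP.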

How the results depend on the processing

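Of the 179 called genes among the 192 followed by name, 42 lost their call in at least 1 of the 19 alternatives and none changed sign. The other 137 kept it in every alternative that gave them a result. Some had no result in a setting, such as Hbb without globin genes and Ngp in DESeq2. Named calls lost ranged from 11 to 32 when 1 library was left out, 32 without preOP 3, and 32 were lost with a minimum fold of 2. That setting tests for more than a 2-fold change and gave 604 higher and 810.0 lower genes. Leaving out 1 of the 6 libraries gave 972 to 2233 higher and 1108 to 1800.0 lower genes against preOP, and 176 to 726 calls against normal and 0 to 1 against nonunion, the last being 1 without delayed 2 or without nonunion 2. DESeq2 called 1996 genes against normal and 181 against nonunion, and a fit of all 12 libraries called 1821 against normal. In 2 settings added after seeing the data, leaving out delayed 2 and nonunion 2 gave 2749 higher genes against preOP, 2076 calls against normal and 60 against nonunion, and using only delayed 1 and 3 with preOP gave 3355 higher and 3315 lower. The cause of these moves was not tested.

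Replicate numbers were not shown to pair the samples: deviations of same-numbered delayed and preOP libraries correlated at 0.012, 0.015 and 0.187, so the numbers 1 and 2 were below 0.1, and delayed 2 correlated better with preOP 1 than with preOP 2. With the replicate block, 1423 genes were higher and 1954 lower than in preOP, 433 were called against normal and 0 against nonunion.

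The genes that changed sign were not called with all libraries. Over the fits that left out 1 library the log2 difference ran up to 0.91 for Atp5f1b, 1.10 for Atp5f1a, 1.73 for Acta1, 4.05 for Myh2, 2.68 for Myh3 and 0.63 for RT1-Da, and down to -0.47 for Fabp4 and -0.59 for Cd74. Without delayed 2 it was -0.44 for Atp5f1b, -0.18 for Atp5f1a, -3.31 for Acta1, -6.88 for Myh2, -4.08 for Myh3 and 0.17 for Cd74. Leaving out nonunion 2 as well gave -0.45, -0.19, -3.32, -6.89, -4.09 and 0.15, and delayed 1 and 3 with preOP alone gave -0.45, -0.19, -3.31, -6.89, -4.09 and 0.15. Acta1 was at -0.30 with the replicate block, and limma-voom gave -1.76 for Acta1, -3.29 for Myh2 and -1.81 for Myh3. Fabp4 turned to 0.081 without delayed 3 and 0.23 without preOP 1, Cd74 to 0.046 without preOP 1, and RT1-Da to -0.19 without delayed 1 and -0.097 without preOP 3.

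With 3 libraries a group and a common biological coefficient of variation of 0.472, most simulated 2-fold differences between delayed and preOP were not recovered. The deposited tables are estimates per transcript, so close gene copies (globins, defensins, Hspa1a and Hspa1b) share reads.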
